A study of Saccharomyces cerevisiae with 6 samples.

Results

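Fatty acids and phospholipids are built by a connected set of enzymes in yeast, and the transcripts of 32 genes of that set were compared between strains IMF17 and IMX2109, out of 5703 features measured. The members were taken by gene name and cover fatty acid synthesis, inositol supply, the phospholipid branches that start from CDP-diacylglycerol and from choline or ethanolamine, the regulators Ino2, Ino4 and Opi1, and the handling of phosphatidate and storage lipid. A member name is carried by 34 rows, because FAS1 is given to 3 of them. YKL182W is FAS1 in the reference annotation, while YDR262W and YLR001C have no such name there and were left out. IMF17 expresses glycolysis from an added neochromosome alone, and IMX2109 expresses it from the native genome. Both came from a freezer stock, were moved in biological triplicate to fresh selective minimal medium with glucose, and were sampled in mid-exponential growth in aerobic shake flasks at an OD660 of 8. Further alleles of either strain are not stated in the labels. Each genotype is represented by 1 strain, so the tests measure the spread between cultures of that strain. In bulk cultures, less transcript per cell and fewer cells that carry it cannot be told apart.

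In yeast the enzymes of phospholipid synthesis answer to the supply of inositol and choline. The activators Ino2 and Ino4 bind as a pair to a short promoter element, and the repressor Opi1 keeps them in check when inositol is plentiful. When phosphatidate builds up at the endoplasmic reticulum, Opi1 is held there and the genes are expressed. INO1, which makes a phosphate of inositol from glucose 6-phosphate, is the classic and most strongly regulated target. PIS1, which joins inositol to CDP-diacylglycerol, lies outside this control.

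The counted reads ranged from 14696540 to 18801158 per library. The libraries matched their strain labels, in that 26 neochromosome features named as hypothetical proteins had 790050 reads in the IMF17 libraries and 9 in the IMX2109 libraries. The strains also differed in the features of the 2-micron plasmid, which had 44959 reads in the IMF17 libraries and 0 in the IMX2109 libraries. The nuclear chromosomes took 84.6 ± 0.323% of the counted reads of IMF17 and 90.4 ± 0.519% of those of IMX2109 (SD, 3 libraries each). All features placed on the neochromosome together took 15.69, 15.27 and 15.05% in IMF17 replicates 1 to 3. In IMX2109 replicates 1 to 3 they took 10.01, 9.79 and 9.02%, so as a whole they were not empty there. The values are FPKM, reads per length of gene and per total of counted reads, which includes the reads outside these nuclear chromosomes, mostly those of the neochromosome. The median log2 fold change of all 5425 tested features was -0.069 as deposited. It was -0.0039 where libraries were scaled by the median ratio of their features to the mean library, and 0.025 where they were scaled by their nuclear reads. The IMX2109 libraries also differed by gene length. Among 195 nuclear genes over 4 kb the median deviation from the strain's mean was -0.11 in replicate 1 and 0.13 in replicate 3 on the log2 scale, against 0.02 and -0.01 among 1912 genes under 1 kb, while the IMF17 libraries stayed between -0.02 and 0.02 in every length class.

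**Figure D1:**
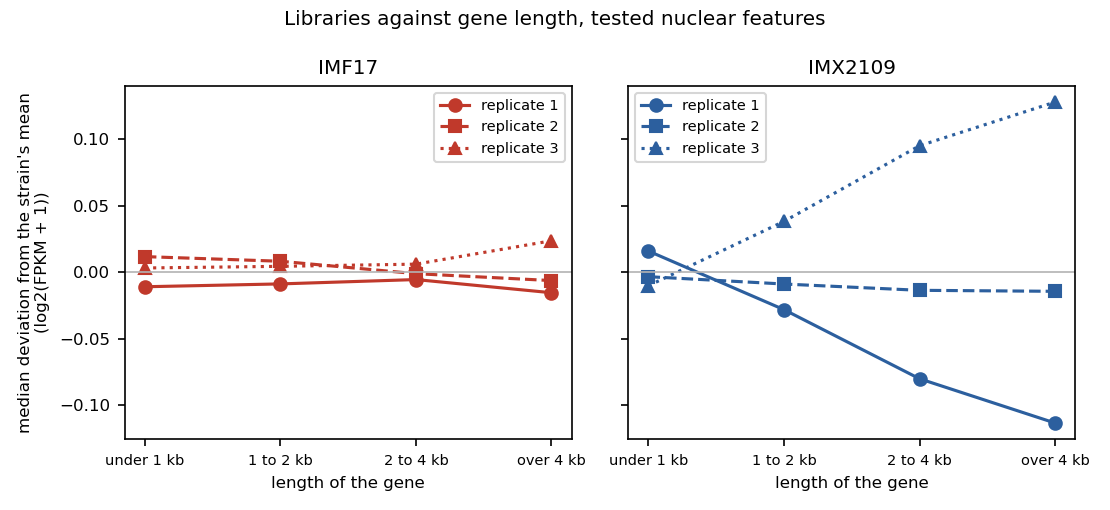
Median deviation of each library from its strain's mean on the log2(FPKM + 1) scale (vertical axis) for 4 classes of gene length (horizontal axis), over tested nuclear features, with 1 line per library. In IMX2109 replicates 1 and 3 part with rising length, reaching -0.11 and 0.13 over 4 kb, and the IMF17 libraries do not.

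Of the 32 members, 16 were classed as Ino2/Ino4-controlled from general knowledge of the pathway and not from a search of sequence. That knowledge may itself rest on the promoter element, so the shares of cores by class are no test of the classes. The promoter sequences below run from 250 to 101 bases before the start of each gene in the R64 reference genome of strain S288C (RefSeq), not in the assembly of IMF17, and the capitals mark CATGTG, the core of the Ino2/Ino4 element, or CACATG, the same core on the other strand. INO1 (chr10:136034-136183), OPI3 (chr10:573036-573185), CHO1 (chr5:208575-208724), ITR1 (chr4:1445568-1445717) and INO2 (chr4:699569-699718) lie on the minus strand and GPT2 (chr11:567668-567817) on the plus strand. They are shown because INO1 rose while its co-regulated genes ITR1, OPI3 and INO2 fell as deposited, and because CHO1 missed the threshold. The falls of OPI3 and INO2 were not kept with median-ratio or nuclear-read scaling, and that of ITR1 not with nuclear-read scaling. GPT2, the other member that rose, is shown because it has no such core in this window.
INO1: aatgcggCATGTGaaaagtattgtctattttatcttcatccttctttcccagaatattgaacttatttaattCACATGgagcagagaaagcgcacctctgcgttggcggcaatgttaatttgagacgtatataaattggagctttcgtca
OPI3: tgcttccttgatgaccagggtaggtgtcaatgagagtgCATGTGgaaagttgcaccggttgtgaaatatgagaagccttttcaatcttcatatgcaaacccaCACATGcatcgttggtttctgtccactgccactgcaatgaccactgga
CHO1: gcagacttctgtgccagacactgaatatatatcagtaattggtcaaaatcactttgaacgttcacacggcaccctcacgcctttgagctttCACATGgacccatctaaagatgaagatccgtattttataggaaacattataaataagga
ITR1: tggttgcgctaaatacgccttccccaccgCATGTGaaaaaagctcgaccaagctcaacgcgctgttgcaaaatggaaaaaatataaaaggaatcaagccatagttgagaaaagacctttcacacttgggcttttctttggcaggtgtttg
INO2: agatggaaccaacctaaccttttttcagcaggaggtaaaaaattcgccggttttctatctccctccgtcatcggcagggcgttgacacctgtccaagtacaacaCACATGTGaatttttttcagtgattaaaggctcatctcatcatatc
GPT2: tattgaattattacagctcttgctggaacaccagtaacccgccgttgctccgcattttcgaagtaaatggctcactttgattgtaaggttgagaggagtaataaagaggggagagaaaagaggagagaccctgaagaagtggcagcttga

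In INO2 the capitals are 2 cores that overlap, 1 on each strand. Over the window from 250 bases before to 50 bases after the start, the core was found on either strand in 11 of 16 members classed as Ino2/Ino4-controlled (68.8%) and in 2 of 16 other members (12.5%), PSD2 and INO4. Over 6000 reference promoters of the same window the share was 6.92%. Of the 16 controlled genes, FAS1, EPT1 and OPI1 had no core even within 500 bases, and ACC1 and CHO2 had one only beyond 250 bases. A match is a description of letters and not a binding site, and no match says only that these letters are not in the window.

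**Figure D2:**
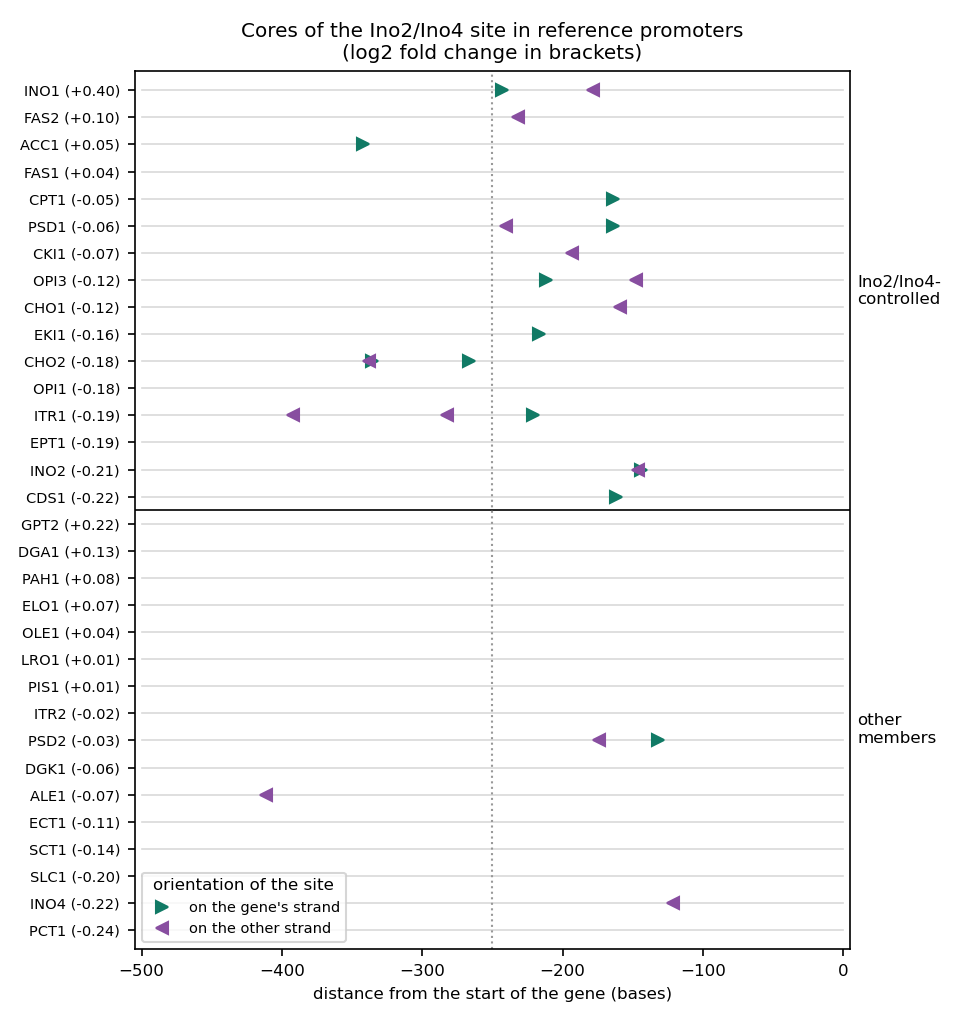
Positions of CATGTG cores (triangles, pointing right on the gene's strand and left on the other) in the 500 bases before each of the 32 member genes (horizontal axis, bases from the start), with the dotted line at 250 bases and the log2 fold change of IMF17 minus IMX2109 in brackets. Most cores stand among the 16 Ino2/Ino4-controlled genes at the top, and genes with and without cores occur among both those with positive and those with negative values.

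All 32 members had a mean of at least 1 FPKM and were tested with the rest of the table. At an adjusted p under 0.05 (limma, Benjamini-Hochberg over all tested features), 2 members rose in IMF17, 10 fell and 20 did not pass. Of all tested features 12.1% were higher and 25.3% lower by the same rule, 37.4% in either direction, against 6.25% and 31.2% of the members, so the shares of the members were near those of the whole table. The split turned with the scaling, and with the median-ratio scaling 4 members were higher and 3 lower (16.4% and 11.7% of all features, 28.1% in either direction). With nuclear-read scaling 6 were higher and 2 lower (19.0% and 8.85%, 27.9% in either direction). The libraries of IMF17 lay wholly above those of IMX2109 for 3 members and wholly below for 17, against 14.5% and 35.1% of all features. With median-ratio scaling these counts were 7 and 10, against 23.0% and 21.2%. The changes were small. The widest were INO1 at 1.34-fold higher and PCT1 at 1.19-fold lower.

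Levels spanned from INO1, the lowest member in both strains, to ITR1, the highest. In IMX2109 the 5 highest were ITR1 at 804 FPKM, OPI3 at 632, OLE1 at 464, CHO1 at 426 and PIS1 at 248, and the 3 lowest were INO1 at 14.1, PAH1 at 23.0 and PSD2 at 27.4 FPKM. By mean level, INO1 lay at percentile 13.2 of the tested features and ITR1 at percentile 95.7.

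**Figure D3:**
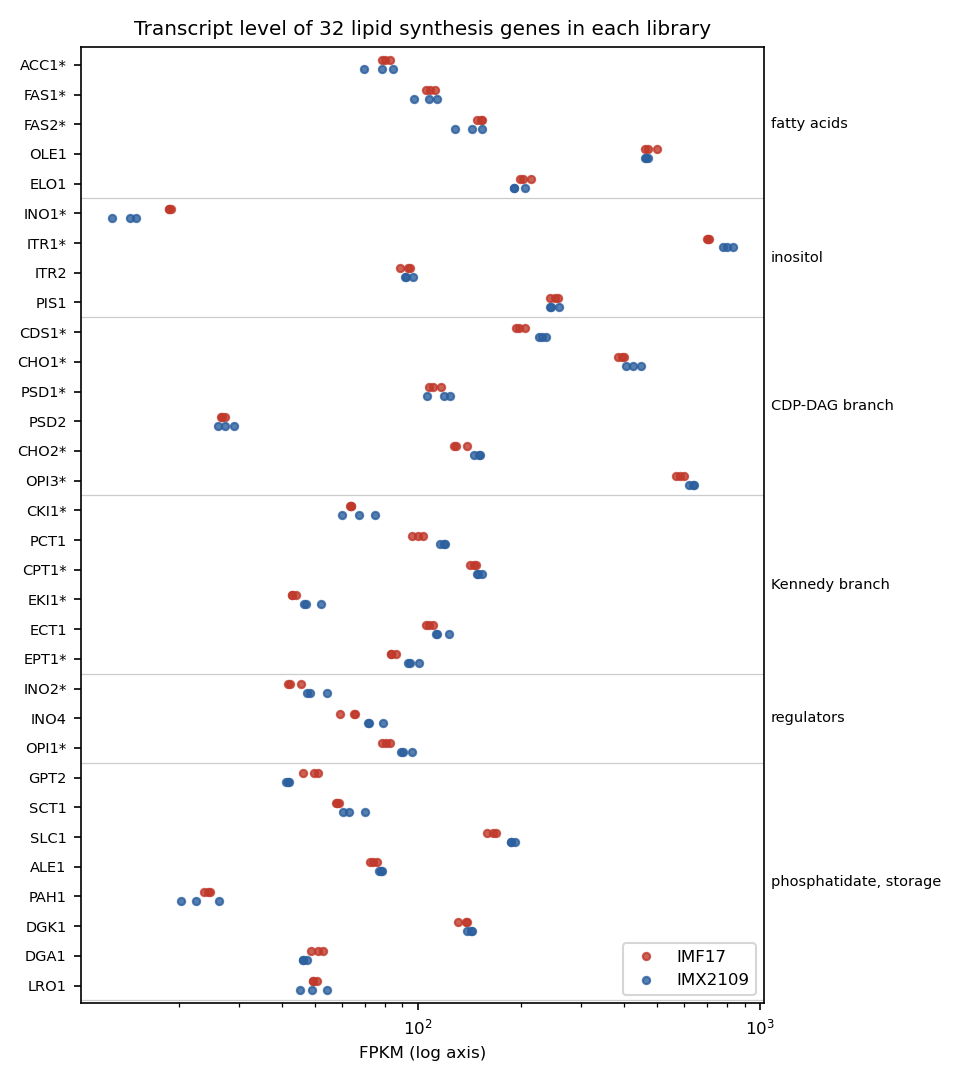
FPKM of the 32 members (rows, grouped by role) in each of 3 IMF17 and 3 IMX2109 libraries, 1 point per library on a log axis; an asterisk marks Ino2/Ino4-controlled genes. INO1 lies at 12.8 to 19.0 FPKM and ITR1 at 701 to 832 FPKM, and for most genes the strains lie close together.

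Inositol supply held both the largest rise and a clear fall. INO1, the inositol-3-phosphate synthase, stood at 18.7, 18.7 and 19.0 FPKM in the IMF17 libraries and at 12.8, 14.4 and 14.99 FPKM in those of IMX2109. All 3 IMF17 values lay above the IMX2109 values, and IMX2109 replicate 1 was the lowest. The rise was 0.40 ± 0.077 on the log2 scale (SE, limma adjusted p = 0.00245), and it passed in all 16 alternative settings, at 0.46 after median-ratio scaling and 0.49 after nuclear-read scaling.

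ITR1, the main inositol transporter of the plasma membrane, stood at 705, 706 and 701 FPKM in IMF17 and at 779, 801 and 832 FPKM in IMX2109. The IMF17 cultures were nearly equal and all below those of IMX2109. ITR1 fell by 0.19 on the log2 scale (SE 0.037, limma adjusted p = 0.00229), a call lost after nuclear-read scaling (log2 fold change -0.10, limma adjusted p = 0.0794).

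ITR2, the minor inositol transporter, lay at 88.7 to 94.5 FPKM in IMF17 and 91.6 to 96.5 in IMX2109 and did not pass (log2 fold change -0.02, 95% confidence interval -0.12 to 0.09). PIS1, the phosphatidylinositol synthase, overlapped between the strains as well, at 244 to 256 and 243 to 257 FPKM (log2 fold change 0.01, 95% confidence interval -0.08 to 0.10). Of the inositol genes, then, 1 rose, 1 fell and 2 did not pass, against 12.1% higher and 25.3% lower of all tested features.

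The regulators of the pathway all fell by similar amounts. INO2, an activator subunit, stood at 41.7, 42.3 and 45.4 FPKM in IMF17 and 48.4, 47.4 and 54.1 in IMX2109. INO4, its partner, stood at 59.3, 64.8 and 65.3 against 78.8, 71.8 and 71.2 FPKM, and OPI1, the repressor, at 78.6, 80.8 and 82.5 against 90.4, 89.0 and 95.8 FPKM. For each of them the IMF17 libraries lay wholly below those of IMX2109, as did 35.1% of all tested features. By limma 25.3% of all tested features were called lower. On the log2 scale INO2 fell by 0.21 (SE 0.065, limma adjusted p = 0.0276), INO4 fell by 0.22 (limma adjusted p = 0.0124) and OPI1 fell by 0.18 (limma adjusted p = 0.0119). None of these calls was kept after median-ratio scaling (limma adjusted p = 0.0766, 0.0838 and 0.0601) or nuclear-read scaling, although all 3 kept their negative sign. After median-ratio scaling their IMF17 libraries still lay wholly below, as did 21.2% of all tested features. INO2 also missed the threshold when IMF17 replicate 1 or 2 or IMX2109 replicate 3 was left out (limma adjusted p = 0.0985, 0.102 and 0.0625), and INO4 when IMF17 replicate 1 was (0.0539).

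In the branch from CDP-diacylglycerol, 3 of 6 genes fell, none rose and 3 did not pass. For comparison, limma called 25.3% of the features it tested lower as deposited. With median-ratio scaling 1 of the 6 was called lower, CDS1, where the share of the features tested was 11.7%. CDS1, which makes CDP-diacylglycerol from phosphatidate, stood at 197, 194 and 205 FPKM in IMF17 and at 236, 226 and 230.2 FPKM in IMX2109. All IMF17 libraries lay below all IMX2109 libraries, and CDS1 fell by 0.22 on the log2 scale (SE 0.040, limma adjusted p = 0.00171). It was 1.16-fold lower in IMF17 and passed in all 16 alternative settings.

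CHO2 and OPI3 methylate phosphatidylethanolamine to phosphatidylcholine. CHO2 stood at 139, 127 and 129 FPKM in IMF17 and at 146, 152 and 151 FPKM in IMX2109, and fell by 0.18 (SE 0.046, limma adjusted p = 0.0101). OPI3 stood at 584, 597 and 568 against 635, 620.4 and 641 FPKM and fell by 0.12 (SE 0.036, limma adjusted p = 0.0265). Neither overlapped as deposited, and both overlapped after median-ratio scaling, where neither passed (limma adjusted p = 0.0995 and 0.432). CHO2 also missed it when IMF17 replicate 2 was left out (limma adjusted p = 0.056), and OPI3 when IMF17 replicate 1 or 3 or IMX2109 replicate 1 or 2 was (0.0665, 0.0838, 0.0506 and 0.0592).

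CHO1, the phosphatidylserine synthase, lay just outside the threshold. Its values were 393, 399 and 385 FPKM in IMF17 and 449, 426 and 404 FPKM in IMX2109, with no overlap and a wider spread in IMX2109 (log2 fold change -0.12 ± 0.043, SE, limma adjusted p = 0.0522). With median-ratio scaling its libraries overlapped and the log2 fold change was -0.05 (limma adjusted p = 0.54), and with nuclear-read scaling it was -0.02 (0.758). Among the fits with 1 library left out it passed only without IMX2109 replicate 3 (limma adjusted p = 0.0116). PSD1 and PSD2, the mitochondrial and the endomembrane phosphatidylserine decarboxylase, overlapped between the strains, with log2 fold changes of -0.06 and -0.03. PSD1 lay at 107 to 116.97 FPKM in IMF17 and 106 to 124 in IMX2109, and PSD2 at 26.5 to 27.3 and 26.0 to 29.1 FPKM. The median log2 fold change of the branch was -0.12.

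The Kennedy branch builds phosphatidylcholine and phosphatidylethanolamine from free choline and ethanolamine. Of its 6 genes 2 fell, none rose and 4 did not pass, beside the 25.3% lower calls of the whole test. With median-ratio scaling 1 of the 6 was called lower, PCT1, beside 11.7% of the whole test. PCT1, which makes CDP-choline and paces the choline arm, had the largest fall of any member. It stood at 95.9, 99.98 and 103 FPKM in IMF17 and at 116, 119 and 120.02 FPKM in IMX2109. The groups were apart in every library, and PCT1 fell by 0.24 on the log2 scale (SE 0.045, limma adjusted p = 0.00178), a call kept in all 16 alternative settings. PCT1 is classed here outside Ino2/Ino4 control.

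EPT1, the ethanolamine phosphotransferase, stood at 83.3, 83.1 and 85.9 against 101, 93.2 and 94.7 FPKM and fell by 0.19 (SE 0.048, limma adjusted p = 0.00902). It did not pass with median-ratio scaling (limma adjusted p = 0.0923) or nuclear-read scaling (0.155). EKI1, the ethanolamine kinase, was lower in every IMF17 library and narrowly missed the threshold, at 42.7 to 44.1 against 46.3 to 52.2 FPKM (limma adjusted p = 0.0546), passing without IMX2109 replicate 1 (0.0384) and not with median-ratio scaling (0.169). CPT1, the choline phosphotransferase, ECT1, which makes CDP-ethanolamine, and CKI1, the choline kinase, did not pass, with log2 fold changes of -0.05, -0.11 and -0.07. CPT1 lay at 142 to 148 against 148 to 154 FPKM and ECT1 at 106 to 110.4 against 113 to 123 FPKM, so that for both every IMF17 library was below those of IMX2109 as deposited, and the strains overlapped with median-ratio scaling. The CPT1 feature is 1655 bases long against 1274 in the reference, so its FPKM covers a longer span. CKI1 was nearly constant in IMF17, at 63.3 to 63.7 FPKM, and ranged from 59.8 to 74.7 FPKM in IMX2109.

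Among the genes that make and use phosphatidate, 1 acyltransferase gene rose, 1 fell and 2 did not pass. GPT2 and SCT1 encode the pair of enzymes that put the first acyl chain on glycerol 3-phosphate. GPT2 stood at 50.8, 49.5 and 46.1 FPKM in IMF17 and at 41.1, 41.7 and 41.9 FPKM in IMX2109, above in every library. It rose by 0.22 ± 0.056 on the log2 scale (SE, limma adjusted p = 0.00996), and the call was lost without IMF17 replicate 2 (limma adjusted p = 0.0514) and kept in the other 15 settings.

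SCT1 stood at 58.0, 57.5 and 58.7 against 60.3, 62.7 and 70.0 FPKM, below in every library, and did not pass (log2 fold change -0.14, limma adjusted p = 0.0873, and 0.0369 without IMX2109 replicate 1). SLC1, which adds the second chain, stood at 165, 169 and 159 against 192, 187 and 186 FPKM and fell by 0.20 (SE 0.040, limma adjusted p = 0.00327), a call lost after median-ratio scaling (0.0603) and nuclear-read scaling. ALE1, a lysophospholipid acyltransferase with an overlapping activity, did not pass, at 72.5 to 75.8 against 77.0 to 78.3 FPKM (log2 fold change -0.07). The longest identical run between the GPT2 and SCT1 genes in the reference is 12 bases, and between ITR1 and ITR2 24 bases.

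PAH1, which turns phosphatidate into diacylglycerol, and DGK1, which reverses that step, did not pass (log2 fold changes 0.08 and -0.06). PAH1 ranged from 20.3 to 26.2 FPKM in IMX2109 and from 23.7 to 24.6 in IMF17. DGK1 lay at 131 to 139 against 139 to 143 FPKM. DGA1, which makes triacylglycerol with acyl-CoA, lay at 48.7 to 52.9 against 46.0 to 47.2 FPKM, above in every IMF17 library (log2 fold change 0.13, limma adjusted p = 0.083), and passed after median-ratio scaling (0.0229). LRO1, which uses a phospholipid as acyl donor, did not pass, at 49.2 to 50.7 against 45.3 to 54.2 FPKM (log2 fold change 0.01). Over the 8 genes of this group 1 rose, 1 fell and 6 did not pass, with a median of -0.02. Among all tested features 12.1% were higher and 25.3% lower.

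The 5 genes of fatty acid synthesis had log2 fold changes between 0.04 and 0.10 and none passed in limma, with 0 at an unadjusted p under 0.05 and 0 called by voom. FAS2 and FAS1, the alpha and beta subunits of fatty acid synthase, stood at 148, 153 and 153 against 128, 144 and 154 FPKM and at 106, 109 and 112 against 97.1, 108 and 113 FPKM. ACC1, the acetyl-CoA carboxylase that feeds the synthase, stood at 78.2, 79.8 and 82.8 against 69.3, 78.6 and 84.7 FPKM. For these 3 genes IMX2109 replicate 1 was the lowest of all libraries and replicate 3 the highest, in the order seen for long genes in general, and their lengths are 5664, 6156 and 6702 bases. The part of gene length in these values was not tested.

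The direction for FAS1 and ACC1 turned without IMX2109 replicate 1 (log2 fold changes -0.02 and -0.02, against 0.04 and 0.05 with all libraries), and without replicate 3 they were 0.09 and 0.12. FAS2 kept its sign, at 0.03 without IMX2109 replicate 1, and at 0.16 without replicate 3 it passed (limma adjusted p = 0.0447). OLE1, the fatty acid desaturase, lay at 459 to 499.6 against 460.1 to 469 FPKM and ELO1, an elongase, at 199 to 214 against 190.0 to 205 FPKM. FAS2 also passed as higher with median-ratio scaling (log2 fold change 0.16, limma adjusted p = 0.0371), and FAS2, OLE1 and ELO1 with nuclear-read scaling (0.0291, 0.0296 and 0.0236).

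**Figure D4:**
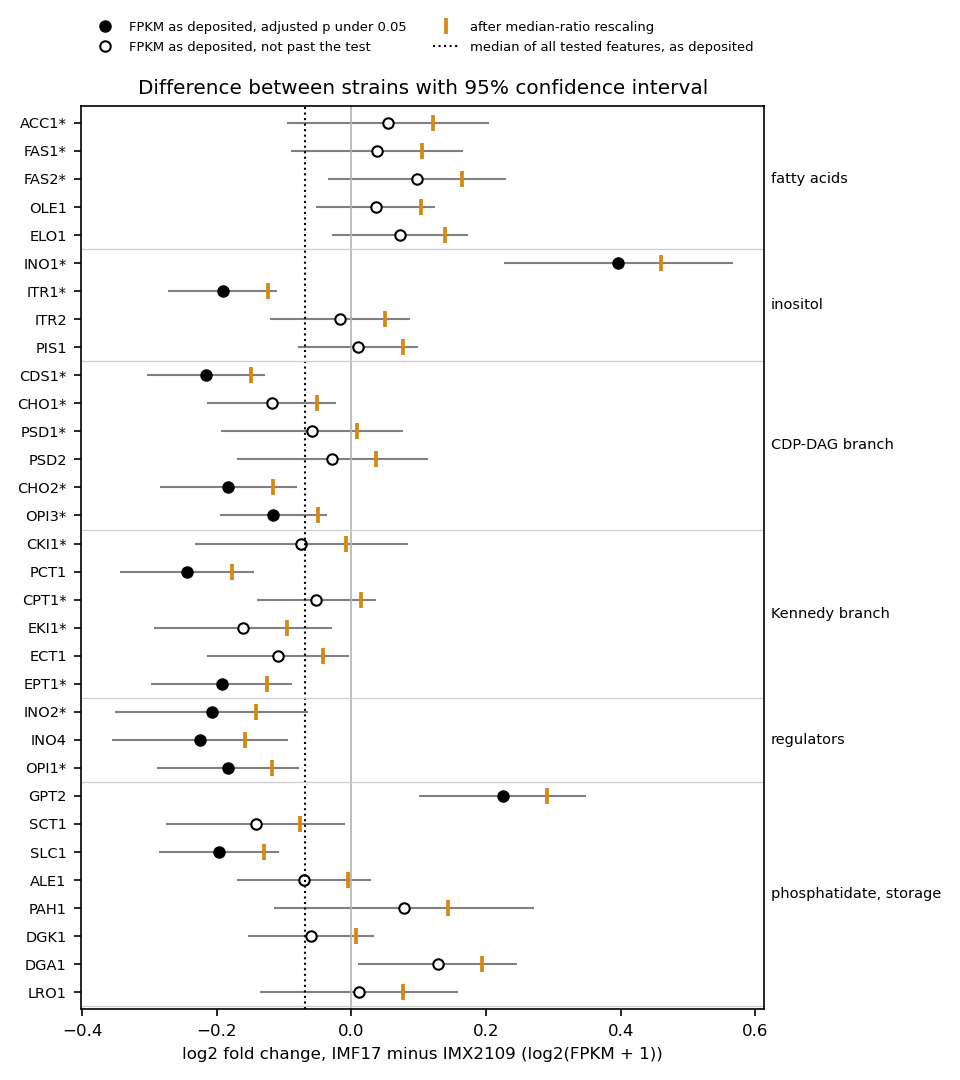
Log2 fold change of IMF17 minus IMX2109 for each member (points with 95% confidence intervals from limma; filled where the adjusted p was under 0.05), with the value after median-ratio scaling as an orange tick and the median of all tested features, -0.069, as a dotted line. INO1 at 0.40 and GPT2 at 0.22 are the filled points right of zero, and the 3 regulators lie together near -0.2.

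Set side by side, the 16 Ino2/Ino4-controlled members had a median log2 fold change of -0.12, with 1 higher, 7 lower and 8 not passing. The 16 other members had a median of -0.02, with 1 higher, 3 lower and 12 not passing. The lower calls were 43.8% of the first class and 18.8% of the second, against 25.3% of all tested features, and the higher calls 6.25% of each, against 12.1%. The median of all tested features was -0.069. After median-ratio scaling the medians were -0.05 for the controlled and 0.04 for the other members, with 2 lower and 2 higher among the first and 1 lower and 2 higher among the second. Of all tested features 11.7% were lower and 16.4% higher in that setting. A narrower list of 11 controlled enzymes and transporters, without fatty acid synthesis and the regulators, gave a median of -0.12 with 5 lower and 1 higher, so INO1 stood alone in its direction there among the genes that passed. The difference between both classes was not tested, and the classes were drawn up with earlier results of these data known.

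Ratios of a pair of transcripts within a library do not depend on how libraries are scaled, but they can carry differences by gene length. They were compared for 14 pairs chosen after their values were seen, by two-sided exact permutation, for which 3 against 3 libraries cannot give less than 0.1 (0.127 adjusted over the 14 pairs). The strains did not overlap in 11 of the 14, 6 with the ratio higher and 5 with it lower in IMF17. Separation was thus usual among these pairs, and the pairs were not drawn independently of their values. Some pairs also share a gene, as INO1 over ITR1, CHO1 and OPI3 do, so they are not separate results. The share without overlap among all possible pairs was not computed. INO1 over ITR1, synthesis against uptake of inositol, was 0.0265, 0.0265 and 0.0271 in IMF17 and 0.0164, 0.0179 and 0.0180 in IMX2109, a log2 difference of 0.61 ± 0.045 (SE, exact permutation p = 0.1). INO1 over OPI3 differed by 0.54 ± 0.075 in the same direction (exact permutation p = 0.1).

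GPT2 over SCT1 was 0.876, 0.862 and 0.784 in IMF17 and 0.682, 0.665 and 0.599 in IMX2109, apart in all libraries (log2 difference 0.37 ± 0.076, exact permutation p = 0.1). ITR1 over ITR2 was lower in IMF17, at 7.64 ± 0.232 against 8.62 ± 0.136 (SD, n = 3, exact permutation p = 0.1). CDS1 over PAH1, which turn phosphatidate into CDP-diacylglycerol and into diacylglycerol, was 8.21 ± 0.101 against 10.2 ± 1.43 (SD, n = 3, exact permutation p = 0.1). In IMX2109 replicates 1 to 3 it was 11.6, 10.1 and 8.78, and the genes are 1374 and 2589 bases long. INO1 over CHO1, of 1602 and 831 bases, was 0.0285, 0.0338 and 0.0371 there. Both ran in the order seen for gene length in IMX2109. SLC1 over ALE1, of 912 and 1860 bases, did not, at 2.46, 2.39 and 2.42. The part of gene length in these ratios was not tested. The other pairs without overlap differed less, except INO1 over CHO1 (log2 difference 0.54): CPT1 over EPT1 by 0.14, CKI1 over EKI1 by 0.09, PCT1 over ECT1 by -0.14, SLC1 over ALE1 by -0.13 and FAS1 over FAS2 by -0.06 (exact permutation p = 0.1 for each). The ratios PSD1 over PSD2, PAH1 over DGK1 and DGA1 over LRO1 overlapped between the strains (exact permutation p = 0.6, 0.4 and 0.3).

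**Figure D5:**
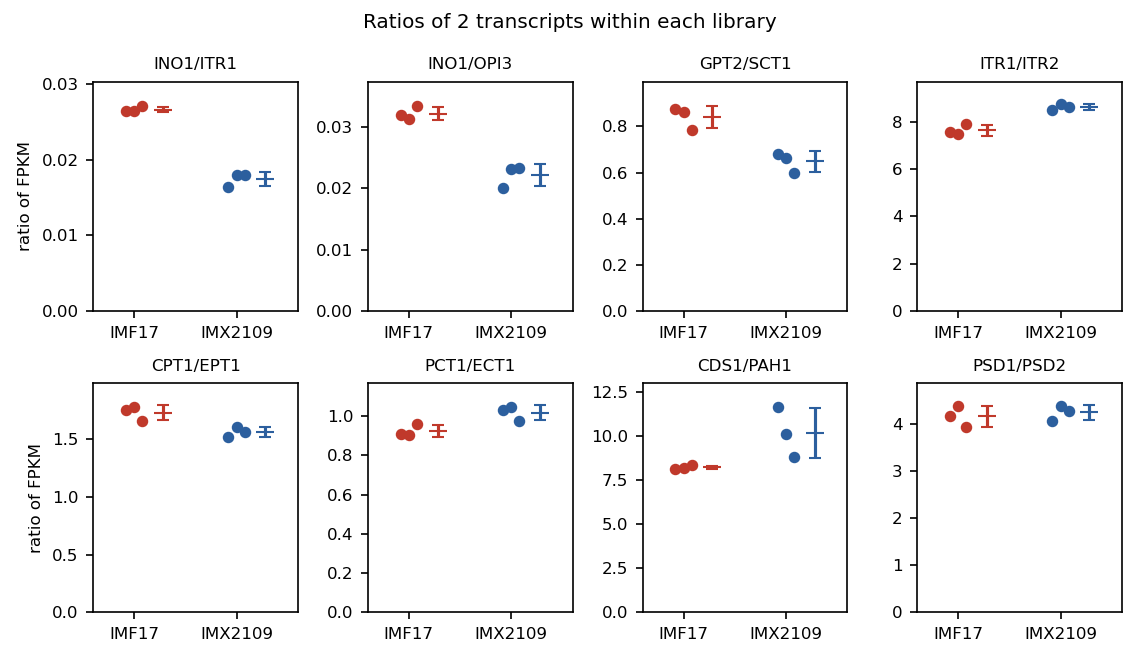
Ratios of FPKM of a pair of members within each library (vertical axes from 0), 3 points per strain with mean and SD beside them, for 8 of the 14 pairs. INO1 over ITR1 and GPT2 over SCT1 are higher in every IMF17 library, ITR1 over ITR2 is lower in each, and PSD1 over PSD2 overlaps.

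Other lipid genes were taken from 9 lists. Of 12 genes of fatty acid elongation and activation 5 fell and 1 rose (median log2 fold change -0.13), against 25.3% lower and 12.1% higher of all tested features, the shares to set beside each list that follows. With median-ratio scaling 3 were lower and 2 higher, against 11.7% and 16.4%. FAA3 and FAA4, acyl-CoA synthetases, stood at 59.3 ± 0.536 against 78.0 ± 2.15 and at 116 ± 3.28 against 143 ± 4.67 FPKM (SD, n = 3; limma adjusted p = 0.000102 and 0.000451). ELO3 and ELO2, the elongases of very long chains, were 1.16-fold and 1.17-fold lower (limma adjusted p = 0.00112 and 0.00318). ELO3 passed in all 16 alternative settings, and ELO2 did not pass with median-ratio scaling (0.0618) or nuclear-read scaling (0.0625), whereas FAA1, the main acyl-CoA synthetase for imported fatty acids, was 1.19-fold higher. Of 7 regulators of OLE1 none passed in either direction in limma or voom, with 0 at an unadjusted p under 0.05 (smallest limma adjusted p = 0.123, for the ubiquitin ligase gene RSP5), and RSP5 passed as higher with median-ratio scaling (0.0223), nuclear-read scaling (0.0205) and without IMX2109 replicate 3 (0.005).

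Genes that bring in or release phospholipid precursors held the largest change seen among these lists. Of 11, 3 rose and 1 fell (median 0.03). GIT1, the transporter of glycerophosphoinositol, stood at 18.5 ± 0.949 against 10.6 ± 0.754 FPKM, 1.75-fold higher in IMF17 (limma adjusted p = 3.64e-05). INM1, an inositol monophosphatase, rose 1.19-fold and GDE1, which splits glycerophosphocholine, 1.26-fold, a call lost without IMF17 replicate 1 or 2 (limma adjusted p = 0.0563 and 0.0637). HNM1, the choline transporter, fell from 303 ± 3.09 to 261 ± 3.97 FPKM (limma adjusted p = 0.000956). GIT1 and HNM1 passed in all 16 alternative settings.

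Of 8 genes around phosphatidate phosphatase and the anchoring of Opi1, SCS2 fell and YET3 rose (median 0.0025). SCS2, whose product holds Opi1 at the endoplasmic reticulum, stood at 273 ± 4.07 against 334 ± 21.4 FPKM (SD, n = 3, limma adjusted p = 0.000957) and passed in all 16 alternative settings. Of 12 lipid droplet genes PLN1, a droplet coat protein, rose 1.23-fold and ARE2, a sterol acyltransferase, was 1.18-fold lower (median -0.06). Of 7 genes of mitochondrial fatty acid synthesis ETR1, the enoyl reductase, rose 1.37-fold and CEM1, the condensing enzyme, was 1.20-fold lower (median -0.02), the latter not with nuclear-read scaling (limma adjusted p = 0.061). Of 6 cardiolipin genes PGC1, a phospholipase acting on phosphatidylglycerol, rose 1.12-fold and none fell (median 0.11), and 4 were higher with median-ratio scaling. PGC1 did not pass without IMX2109 replicate 2 (limma adjusted p = 0.0619).

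Of 21 sphingolipid genes 6 fell and 3 rose (median -0.08), and with 1 library left out 2 to 7 were lower and only 2 higher. The ceramidase genes YPC1 and YDC1 were 1.35-fold and 1.21-fold higher (limma adjusted p = 0.00342 and 0.00136). LAG1, a ceramide synthase subunit, and ORM1, an inhibitor of the first enzyme of the pathway, were 1.13-fold and 1.11-fold lower. None of the sphingolipid genes was called lower in limma after median-ratio scaling, where 4 were higher. Of 12 genes of the unfolded protein response, a pathway known to be linked to inositol shortage in yeast, none rose and SCJ1, a chaperone of the endoplasmic reticulum, fell (median -0.10, limma adjusted p = 0.0196). The fall of SCJ1 passed in 10 of 16 alternative settings. It did not pass with median-ratio scaling (0.0876) or nuclear-read scaling (0.235), nor without IMF17 replicate 1 or 2 or IMX2109 replicate 2 or 3 (0.0738, 0.0812, 0.0539 and 0.0511), and 0 to 2 genes of the list were lower with 1 library left out.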

How the data were processed

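Per the file headers, the deposited values are FPKM from the authors, 1 table per library, on gene models of a polished IMF17 assembly. Per the labels' protocols, the kit keeps the strand of the mRNA. The tools named in the submitters' processing notes are featureCounts, DESeq2, edgeR, SAMtools and STAR (2.5.4a), without their roles; use of strand and of multi-mapped reads is not stated. IMX2109 libraries carry the same IMF17 models. FPKM times gene length, divided by its smallest nonzero value in each library, gave whole reads for 100.0% of values within 0.01 reads. That smallest value was taken as 1 read. Of 5703 features 5497 matched R64 locus tags, which served for names; R64 also gave the promoters shown.

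Features with a mean of at least 1 FPKM were tested for IMF17 against IMX2109 with limma 3.58.1 in R 4.3.3, with a variance trend, on the scale log2(FPKM + 1). Two-sided p-values were adjusted by Benjamini-Hochberg over every tested feature, with a threshold of 0.05. Alternatives were other pseudocounts, filters and scalings, voom, a robust variance, the replicate block and each library left out. Log2 changes understate low genes, and folds are ratios of mean FPKM. All members are named, and of each other list at most 4 genes by smallest p, plus FAA1, chosen after its values were seen. Genes of those lists with no single matching row (BPL1, GEP4, LCB5, PLB1, TSC3) were not analysed here. The members and lists were chosen with earlier results of these data known. The code was tested on simulated data. Python 3.11.15, pandas 2.3.3, scipy 1.17.1 and matplotlib 3.10.9 were used.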

Additional observations from a re-analysis of the deposited data

How the results depend on the processing

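With a median-ratio scaling and a nuclear-read scaling, counts of higher features went from 654 to 889 and 1032 and of lower features from 1375 to 633 and 480. For members the higher count went from 2 to 4 and 6 and the lower count from 10 to 3 and 2; for Ino2/Ino4-controlled members from 1 to 2 and 2 and from 7 to 2 and 1; for other members from 1 to 2 and 4 and from 3 to 1 and 1; for the 9 other lists from 11 to 20 and 21 and from 16 to 7 and 6. The median log2 fold change of controlled members went from -0.12 to -0.050 and -0.021, and that of other members turned from -0.023 to 0.043 and 0.071. Leaving out 1 library gave 1 to 3 members higher and 7 to 11 lower, controlled members 1 to 2 higher and 5 to 7 lower, other members 0 to 1 higher and 2 to 4 lower (medians -0.14 to -0.10 and -0.052 to 0.0039), other lists 9 to 13 higher and 10 to 18 lower, and all features 516 to 761 higher and 939 to 1326 lower.

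Members near zero changed sign without passing in either setting: under median-ratio scaling ITR2 (0.049), PSD1 (0.0078), PSD2 (0.037), CPT1 (0.015) and DGK1 (0.0070); under nuclear-read scaling ITR2 (0.078), PSD1 (0.037), PSD2 (0.064), CKI1 (0.020), CPT1 (0.044), ALE1 (0.024) and DGK1 (0.036). Without 1 library the ranges were -0.023 to 0.12 for ACC1, -0.023 to 0.087 for FAS1, -0.035 to 0.011 for ITR2, -0.0071 to 0.036 for PIS1, -0.064 to 0.013 for PSD2, -0.16 to 0.0038 for CKI1, -0.0042 to 0.17 for PAH1 and -0.049 to 0.078 for LRO1. Other pseudocounts, no filter, a robust variance and voom on recovered reads changed no member's call. A filter at 10 FPKM, TPM rescaling and the replicate block each added the fall of CHO1 alone (limma adjusted p = 0.0496, 0.0323 and 0.0347).

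Whether replicate numbers pair the cultures could not be settled from so few libraries. Deviations of same-numbered libraries correlated at 0.09, -0.05 and 0.13, and those of other numbers at -0.15 to 0.10. Not every library correlated best with its own number. With the replicate number as a block 2 members were higher and 11 lower, and over all features 685 were higher and 1517 lower. The share of reference promoters with the core went from 6.92% to 5.57% without the bases after the start and to 13.2% over 500 bases, a window chosen after seeing the data, where controlled members reached 81.2% and other members 18.8%. INO1, at 470 reads in the first IMF17 library, is the member where depth limits precision most among those that rose.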
